A study of Mus musculus with 4 samples.

Results

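The 37 genes described here encode the proteins of the vascular basement membrane and the enzymes that fold, hydroxylate and cross-link its collagens. They were taken by symbol from the 32286 genes of the count tables: 6 type IV collagen chains (*Col4a1* to *Col4a6*), 10 laminin chains (*Lama1* to *Lama5*, *Lamb1* to *Lamb3*, *Lamc1* and *Lamc3*), 6 nidogens or heparan sulfate proteoglycans (*Nid1*, *Nid2*, *Hspg2*, *Agrn*, *Col18a1* and *Col15a1*), 3 matrix-associated glycoproteins (*Sparc*, *Fn1* and *Vwa1*), 7 folding and hydroxylation genes (*Serpinh1*, *P4ha1*, *P4ha2*, *P4hb*, *Plod1*, *Plod2* and *Plod3*) and 5 lysyl oxidases (*Lox* and *Loxl1* to *Loxl4*). All 37 were found in every library. The cells came from vascular fragments that beads against PECAM1, a surface protein of endothelial cells (ECs), had pulled from the brains of 4 mice aged 3 months, and their RNA was counted as unique molecules (UMIs) by 10x Genomics 3′ single-cell sequencing. WT1 (female) and WT2 (male) were *Angpt2*+/+, and KO1 (female) and KO2 (male) were *Angpt2*-/-. *Angpt2* encodes angiopoietin-2, a ligand of the endothelial receptor TEK. The KO allele lacked exon 4 in all cells from the germline on, after a cross of floxed mice to Pgk-Cre and backcrossing to C57BL6/J, and the WT mice were littermates. Each mouse gave 1 library, so p-values for KO against WT measure the spread between 2 mice per genotype. Where cells of the same mouse were compared, with the mouse as a term, p-values rest on the difference within each of the few mice instead. The tests estimate spread with information shared across genes. An SE or p-value can therefore understate how much a single gene differs between mice.

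A basement membrane is a thin sheet of extracellular matrix to which ECs attach and which pericytes and smooth muscle cells share with them. Laminins, each built of an alpha, a beta and a gamma chain, and type IV collagen, built of 3 alpha chains, form separate networks that nidogens and the proteoglycan perlecan hold together. Collagen chains are hydroxylated on prolines and lysines and held by a chaperone in the endoplasmic reticulum before they are secreted, and lysyl oxidases cross-link them outside the cell. In brain vessels this sheet is laid down by endothelial, mural and glial cells, and new vessels build it as they grow.

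The genes of both abundant type IV collagen chains lie head to head. *Col4a1* (ENSMUSG00000031502, minus strand) and *Col4a2* (ENSMUSG00000031503, plus strand) start 21 bases apart on chromosome 8 of GRCm38, and *Col4a3* with *Col4a4* on chromosome 1 and *Col4a5* with *Col4a6* on the X chromosome are arranged the same way. The promoter windows of *Col4a1* and *Col4a2* are printed because the pair moved together in the comparisons below, and those of *Lamb1* (ENSMUSG00000002900) and *Lamb2* (ENSMUSG00000052911), both laminin beta chains, because they did not. Each window holds 250 bases before and 50 bases after the start in RefSeq (GRCm38.p6), read 5′ to 3′ on the gene's strand: chr8:11312777-11313076 (minus), chr8:11312555-11312854 (plus), chr12:31265043-31265342 (plus) and chr9:108479612-108479911 (plus). Capitals mark GGGCGG, the core of a GC box, and CCAAT, the core of a CCAAT box, searched on both strands (as CCGCCC and ATTGG on the other).
Col4a1: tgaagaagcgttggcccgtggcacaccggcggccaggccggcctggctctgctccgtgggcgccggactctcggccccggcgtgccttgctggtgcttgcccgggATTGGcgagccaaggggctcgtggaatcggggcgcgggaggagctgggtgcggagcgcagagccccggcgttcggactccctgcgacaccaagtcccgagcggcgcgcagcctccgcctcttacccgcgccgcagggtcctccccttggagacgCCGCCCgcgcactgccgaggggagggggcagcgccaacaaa
Col4a2: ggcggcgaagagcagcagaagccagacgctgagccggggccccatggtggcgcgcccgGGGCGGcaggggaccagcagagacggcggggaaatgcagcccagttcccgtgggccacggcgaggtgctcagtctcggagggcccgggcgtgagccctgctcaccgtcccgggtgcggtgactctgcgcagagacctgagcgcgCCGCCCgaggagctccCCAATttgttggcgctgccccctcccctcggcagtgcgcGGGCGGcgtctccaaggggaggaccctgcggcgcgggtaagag
Lamb1: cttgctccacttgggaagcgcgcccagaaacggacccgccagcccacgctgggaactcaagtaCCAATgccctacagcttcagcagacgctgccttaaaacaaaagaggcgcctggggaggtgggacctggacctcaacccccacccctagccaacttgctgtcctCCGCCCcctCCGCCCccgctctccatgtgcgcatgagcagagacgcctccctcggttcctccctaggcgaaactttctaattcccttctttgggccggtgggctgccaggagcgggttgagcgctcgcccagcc
Lamb2: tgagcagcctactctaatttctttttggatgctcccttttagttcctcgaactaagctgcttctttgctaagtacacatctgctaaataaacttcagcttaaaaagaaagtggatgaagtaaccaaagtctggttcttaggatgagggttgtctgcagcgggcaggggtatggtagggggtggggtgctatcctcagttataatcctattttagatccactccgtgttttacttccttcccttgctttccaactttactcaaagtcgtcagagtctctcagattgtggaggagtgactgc

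The *Col4a1* and *Col4a2* windows shared 78 bases, so a match in the shared stretch counts for both. The *Lamb1* window held 2 matches to GGGCGG and 1 to CCAAT, with 63.7% of its bases G or C, and the *Lamb2* window held neither, with 44.0%. Of the 37 genes, 23 had a promoter entry, of which 17 held GGGCGG and 8 held CCAAT. Among all 32851 promoter entries the shares were 35.7% and 37.4%. These are shares of single entries, while a gene with more than 1 entry was counted if any of them matched. The units are thus unlike. A match only says that the letters are there.

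Of 19809 barcodes, the 17999 with over 500 genes and under 10% mitochondrial UMIs were kept as cells. A library held 2900 to 5742 of them and 31753395 to 42903731 UMIs. Barcodes shared between libraries numbered 0 to 13 per pair. No doublets were removed. Cells were clustered without the 37 genes and 61 related matrix genes, so that the clusters did not rest on them, and named from fixed markers. ECs (14154 cells) carried all 7 endothelial markers, and besides them the fragments held cells that were pericyte-like (594), fenestrated endothelial-like (816), B cell-like (274), smooth muscle-like (705), T or NK cell-like (85), microglia-like (906), choroid plexus epithelium-like (230) and erythroid-like (235). ECs split into capillary-like (6806), venous-like (3859), arterial-like (1771) and angiogenic-like (1718) zones, the last led by *Apln* and *Esm1*, genes of sprouting vessels. No cluster of fibroblasts was found, and fibroblast markers summed to 2.87 to 8.20 CPM in ECs (CPM being the UMIs of a gene per 1000000 UMIs of all genes in that class and mouse). *Angpt2* itself was at 10.6 and 9.91 CPM in the ECs of WT1 and WT2 and at 65.4 and 41.0 CPM in those of KO1 and KO2. The 3′ tag that is counted lies outside the deleted exon, so this value does not check the genotype.

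No single cell class held the basement membrane and collagen genes, and members of a family differed in the class where they were highest. Levels below are mean CPM ± SD over the 4 mice of both genotypes, with no test, since a class is defined by its expression. A class is said to lie apart when its 4 mice were all above the 4 mice of the next class. Fenestrated endothelial-like cells had the highest mean for 11 genes (3 of them apart), pericyte-like cells for 9 (3 apart), smooth muscle-like cells for 7 (6 apart), ECs for 4 (0 apart), microglia-like cells for 3 (2 apart), choroid plexus epithelium-like cells for 2 and B cell-like cells for 1 (apart). The share of all genes highest in each class is not given, so these counts cannot be read as an excess among the members. Summed over the 37 genes, fenestrated endothelial-like cells reached 10165 ± 1241 CPM, pericyte-like cells 9604 ± 3634 (11739 ± 4212 in those with few endothelial UMIs, defined below) and ECs 6662 ± 2212 CPM. Erythroid-like cells had 5170 ± 813, smooth muscle-like cells 5087 ± 1096, choroid plexus epithelium-like cells 3652 ± 2725 and microglia-like cells 3482 ± 85.9 CPM. B cell-like cells had 1549 ± 187 and T or NK cell-like cells 1072 ± 714 CPM. How much of the RNA in its barcodes each class makes was not tested. The pericyte-like and smooth muscle-like barcodes also held endothelial RNA. Their 7 endothelial markers summed to 7084 to 7645 CPM and 4340.3 to 6586 CPM, against 11599 to 12652 CPM in ECs. For some members levels are therefore also given for mural-like cells with few endothelial UMIs. In these the endothelial markers had under 0.1 of the UMIs of the pericyte and smooth muscle markers. The class counts above rest on all barcodes of a class. The highest class of a member may differ when only mural-like cells with few endothelial UMIs are used. In these pericyte-like cells the endothelial markers summed to 313 to 429 CPM.

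**Figure D1:**
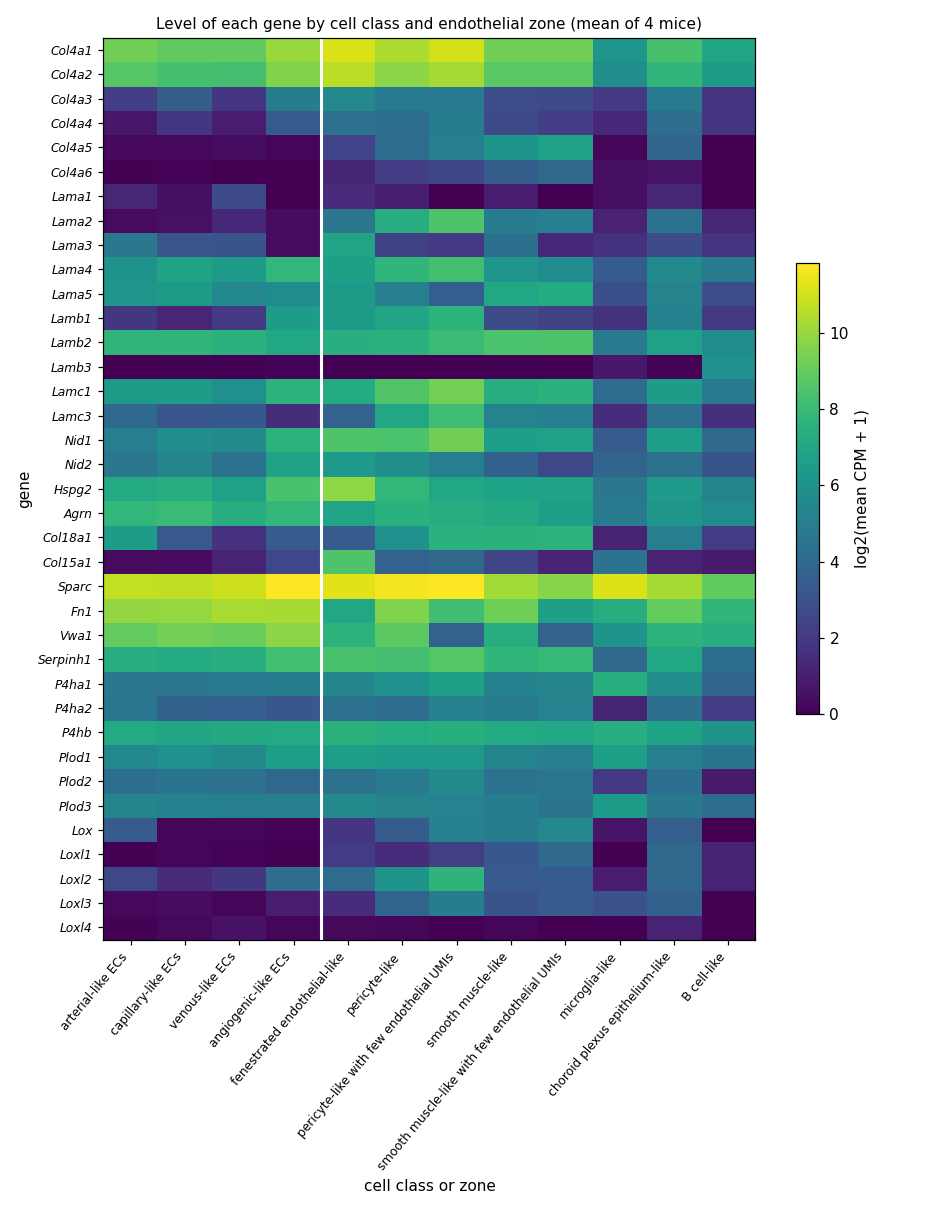
Heat map of the level of the 37 genes (rows, by family) in the endothelial zones and cell classes (columns), as log2(mean CPM over 4 mice + 1) in colour. Rows such as Col4a5, Col4a6 and Lamb2 are strongest in smooth muscle-like cells, Lama2 and Lamc3 in pericyte-like cells, and Lamb1 stands out among zones in angiogenic-like ECs.

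Type IV collagen chains fell into 3 patterns. *Col4a1*, which with *Col4a2* makes the common trimer of vessels, was at 647 ± 281 CPM in ECs, 2274 ± 501 CPM in fenestrated endothelial-like cells and 1335 ± 800.3 CPM in pericyte-like cells. *Col4a2* followed it, with 453 ± 224 CPM, 1544 ± 318 CPM and 867 ± 470.0 CPM in the same order. *Col4a3*, a chain known from the glomerular basement membrane, was low in arterial-like (3.37 ± 3.63 CPM) and venous-like ECs (2.57 ± 2.27 CPM). It stood at 30.4 ± 16.6 CPM in angiogenic-like ECs and 46.1 ± 8.11 CPM in fenestrated endothelial-like cells. The mice of angiogenic-like ECs overlapped those of capillary-like ECs (10.1 ± 8.67 CPM), and the WT values in angiogenic-like ECs rest on few UMIs. *Col4a4* had its highest zone mean in the same angiogenic-like ECs, 9.14 ± 1.40 CPM, but its WT values there rest on 3 and 2 UMIs. *Col4a5* and *Col4a6* were found mainly in smooth muscle-like cells, at 68.7 ± 12.7 CPM and 10.2 ± 4.98 CPM, both apart from the next class. In smooth muscle-like cells with few endothelial UMIs *Col4a5* was at 107 ± 22.7 CPM.

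Laminin chains differed between the layers of the vessel wall and between zones. *Lama2*, an alpha chain best known from muscle, was at 164 ± 14.2 CPM in pericyte-like cells (380.4 ± 101 CPM in those with few endothelial UMIs) and at 0.896 ± 0.265 CPM in ECs. The gamma chain gene *Lamc3* was highest in the same cells, at 129.9 ± 7.05 CPM, and so was *Lamc1*, the gamma chain of most laminins, at 393 ± 109.5 CPM. *Lama4*, the alpha chain that ECs of all vessel types make, was at 120.5 ± 69.7 CPM in ECs and 219 ± 91.6 CPM in pericyte-like cells, whose mice overlapped. *Lama5* and *Lamb2* had their highest means in smooth muscle-like cells, 134 ± 9.66 CPM and 355 ± 17.8 CPM. Within ECs the capillary-like zone, at 85.2 ± 8.28 CPM and 214 ± 11.4 CPM, overlapped the arterial-like zone, at 73.3 ± 6.54 CPM and 213 ± 17.9 CPM. *Lamb1*, the other beta chain of vascular laminins, was nearly absent from capillary-like ECs (1.38 ± 0.848 CPM) and at 91.1 ± 33.7 CPM in angiogenic-like ECs. *Lama3*, an alpha chain best known from epithelia, marked fenestrated endothelial-like cells (119 ± 16.6 CPM) and, among zones, arterial-like ECs (24.5 ± 3.68 CPM). *Lama1* was found at 5.26 ± 0.759 CPM in venous-like ECs. *Lamb3* was at 62.7 ± 17.1 CPM in B cell-like cells and 0.0436 ± 0.0645 CPM in ECs.

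Of the nidogens and proteoglycans, *Hspg2*, which encodes perlecan, was at 913 ± 26.3 CPM in fenestrated endothelial-like cells and 187 ± 92.6 CPM in ECs. *Col15a1*, a collagen with heparan or chondroitin sulfate chains, was at 377 ± 42.4 CPM in fenestrated endothelial-like cells and 21.8 ± 3.35 CPM in microglia-like cells, the next class. *Nid1* and *Nid2*, the linkers of laminin and collagen, were highest among zones in angiogenic-like ECs, at 202 ± 58.2 CPM and 111 ± 14.2 CPM. *Agrn*, which encodes agrin, was highest in capillary-like ECs, at 267 ± 28.1 CPM. *Col18a1*, the source of endostatin, ran from 91.2 ± 23.5 CPM in arterial-like to 2.21 ± 0.930 CPM in venous-like ECs, and smooth muscle-like cells had 195 ± 53.1 CPM. Both *Agrn* and *Col18a1* lay apart in their highest zone.

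The glycoproteins *Sparc*, a collagen-binding protein, *Fn1*, which encodes fibronectin, and *Vwa1*, which encodes a perlecan-binding protein, were endothelial or shared. *Vwa1* was at 638 ± 152 CPM in ECs and 459 ± 162 CPM in all pericyte-like cells, but at 12.1 ± 9.28 CPM in pericyte-like cells with few endothelial UMIs. *Fn1* was at 1140.2 ± 205 CPM in ECs and 294 ± 282 CPM in pericyte-like cells with few endothelial UMIs. For *Fn1* and *Vwa1* the class next to ECs was erythroid-like, at 957 ± 116 CPM and 522 ± 36.1 CPM, with overlapping mice. *Sparc* was at 2207 ± 914 CPM in ECs and 3153 ± 1102 CPM in pericyte-like cells. The prolyl and lysyl hydroxylases were not confined to the vessel wall: *P4ha1*, *Plod1* and *Plod3* had their highest means in microglia-like cells, at 174 ± 22.6 CPM, 102 ± 20.4 CPM and 85.4 ± 13.2 CPM. *Serpinh1*, the collagen chaperone, was at 346 ± 18.6 CPM in fenestrated endothelial-like cells, 322 ± 114 CPM in pericyte-like cells and 195 ± 62.9 CPM in ECs. The lysyl oxidases were low and separated by cell type, with *Lox* at 31.5 ± 6.39 CPM in smooth muscle-like cells and 9.61 ± 6.33 CPM in arterial-like ECs, and *Loxl2* at 67.9 ± 46.0 CPM in pericyte-like cells (205 ± 146 CPM in those with few endothelial UMIs). *Loxl1* and *Loxl4* had their highest class means in choroid plexus epithelium-like cells, 14.6 ± 16.5 CPM and 1.18 ± 1.78 CPM, and *Loxl3* in pericyte-like cells, 13.2 ± 2.98 CPM.

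Among the endothelial zones, angiogenic-like ECs had the highest mean for 20 of the 37 genes (12 apart, *Col4a4* among them on 3 and 2 WT UMIs), arterial-like for 6 (5 apart), capillary-like for 6 (1 apart) and venous-like for 5 (2 apart). As for the classes, no share of all genes is given beside these zone counts. They do not show an excess among the members. The angiogenic-like zone held 28 and 26 cells in WT1 and WT2 and 805 and 859 in KO1 and KO2, or 0.869%, 0.553%, 38.5% and 20.7% of the ECs. The few WT cells carried these genes too: *Lamb1* was at 76.2 and 72.7 CPM in the WT and 142 and 73.9 CPM in the KO mice, *Col4a1* at 838 and 861 CPM in the WT and 1444 and 1006 CPM in the KO mice and *Nid1* at 161 and 174 CPM in the WT and 288 and 186 CPM in the KO mice. For all 3 genes KO1 was the highest mouse, and for *Lamb1* KO2 lay between both WT mice. The WT values of *Lamb1* rest on 25 and 18 UMIs.

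To determine how loss of *Angpt2* altered these genes in the endothelium, the UMIs of all ECs were summed per mouse. KO sums were tested against WT sums by the quasi-likelihood test of edgeR, and p-values were adjusted over all genes tested (Benjamini-Hochberg). CPM in the comparisons are scaled by TMM factors. Summed over the 37 genes, without that scaling, ECs held 4981 and 4990.4 CPM in WT1 and WT2 and 9649 and 7028 CPM in KO1 and KO2. Of the 31 members that passed the filter on low counts, 13 were higher and 0 lower in KO ECs at an adjusted p under 0.05, while 3.89% of all 13530 genes tested were called higher and 2.17% lower. Both KO mice lay above both WT mice for 20 of the 31 and below them for 4, with 7 overlapping, and 24.4% of all genes tested had both KO mice above. The share of all genes with both KO mice below is not given, so the 4 cannot be set against it. DESeq2 called 16 members higher (the 13 with *Sparc*, *Vwa1* and *Fn1*) and 1 lower, and 19 of the 31 had an unadjusted p under 0.05. Here and below, counts from DESeq2 and at an unadjusted p have no share over all genes beside them. The same holds for counts with left-out mice, after thinning and under other alternatives, unless a share is printed. Counts without a share cannot be read as an excess among the members. The median log2 fold change of the 31 was 0.54, against −0.019 over all genes tested. By family, 4 of 4 tested type IV collagen chains rose, 3 of 9 laminin chains, 3 of 6 nidogens or proteoglycans, 0 of 3 glycoproteins, 2 of 7 folding and hydroxylation genes and 1 of 2 lysyl oxidases. *Col4a5*, *Col4a6*, *Lamb3*, *Loxl1*, *Loxl3* and *Loxl4* did not pass the filter.

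*Lamb1* showed the largest difference. It was at 2.82 and 1.64 CPM in WT1 and WT2 and 72.8 and 22.0 CPM in KO1 and KO2, 21.7-fold higher in the KO mice (log2 fold change 4.44 ± 0.55 SE, adjusted p = 0.00424). Both KO mice were far above both WT mice, and KO1 was the higher of the KO mice. *Lama4* was at 68.4 and 65.0 CPM in WT1 and WT2 and 210.2 and 137 CPM in KO1 and KO2 (log2 fold change 1.38 ± 0.18 SE, adjusted p = 0.00488). *Lamc1* was at 68.5 and 57.7 CPM in WT1 and WT2 and 179 and 109.8 CPM in KO1 and KO2 (log2 fold change 1.20 ± 0.21 SE, adjusted p = 0.0136). The groups did not overlap for these 3 chains, which together make up a laminin of endothelial basement membranes. The other beta chain and the other endothelial alpha chain gave no call. *Lamb2* was at 188 and 188 CPM in WT1 and WT2 and 173 and 192 CPM in KO1 and KO2 (log2 fold change −0.043, adjusted p = 0.878), and *Lama5* at 58.5 and 60.7 CPM in WT1 and WT2 and 56.3 and 62.2 CPM in KO1 and KO2 (−0.0085, adjusted p = 0.98). *Lama3* and *Lama1* had the lowest fold changes of all members, −1.05 (adjusted p = 0.0535) and −1.14 (adjusted p = 0.0543), and did not pass the test. *Lama3* was called lower with DESeq2, without WT2, without KO1 and, with *Lama1*, without KO2.

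All 4 tested type IV collagen genes rose. *Col4a1* was at 481 and 402 CPM in WT1 and WT2 and 1019 and 680.2 CPM in KO1 and KO2 (log2 fold change 0.94 ± 0.21 SE, adjusted p = 0.0353), and its neighbour *Col4a2* at 309 and 265 CPM in WT1 and WT2 and 749 and 484 CPM in KO1 and KO2 (log2 fold change 1.10 ± 0.21 SE, adjusted p = 0.0199). Both KO mice lay above both WT mice, with KO1 the highest. *Col4a3* was at 1.82 and 1.43 CPM in WT1 and WT2 and 29.8 and 14.9 CPM in KO1 and KO2 (log2 fold change 3.79 ± 0.34 SE, adjusted p = 0.0016) and *Col4a4* at 1.16 and 0.702 CPM in WT1 and WT2 and 6.59 and 3.91 CPM in KO1 and KO2 (log2 fold change 2.51 ± 0.36 SE, adjusted p = 0.00645). These latter chains, low in WT ECs, thus had larger fold changes than the abundant pair. Without KO1, *Col4a1* fell short of the threshold, at 0.62 (adjusted p = 0.145), as it did without WT1 (0.0606) and without WT2 (0.122). *Col4a2* did so without WT1 (0.0503) and without WT2 (0.0742).

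The linkers of both networks rose with them. *Nid1* was at 41.0 and 34.0 CPM in WT1 and WT2 and 176 and 93.0 CPM in KO1 and KO2 (log2 fold change 1.84 ± 0.26 SE, adjusted p = 0.00615), *Nid2* at 25.3 and 22.0 CPM in WT1 and WT2 and 81.3 and 48.7 CPM in KO1 and KO2 (log2 fold change 1.46 ± 0.22 SE, adjusted p = 0.00771) and *Hspg2* at 129 and 102 CPM in WT1 and WT2 and 303 and 213 CPM in KO1 and KO2 (log2 fold change 1.16 ± 0.18 SE, adjusted p = 0.00939). None of the 3 overlapped between genotypes. Among the processing genes, *Serpinh1* was at 139 and 155 CPM in WT1 and WT2 and 274 and 211 CPM in KO1 and KO2 (log2 fold change 0.72 ± 0.14 SE, adjusted p = 0.0237) and *Loxl2* at 3.17 and 2.63 CPM in WT1 and WT2 and 20.4 and 6.91 CPM in KO1 and KO2 (log2 fold change 2.24 ± 0.44 SE, adjusted p = 0.022). *Plod1*, a lysyl hydroxylase, rose by 0.54 (adjusted p = 0.0491). *Plod2*, another lysyl hydroxylase, was at 22.8 and 21.4 CPM in WT1 and WT2 and 17.8 and 17.5 CPM in KO1 and KO2 (log2 fold change −0.32, adjusted p = 0.172), and *Lox* at 2.09 and 1.17 CPM in WT1 and WT2 and 0.524 and 2.04 CPM in KO1 and KO2 (−0.33, adjusted p = 0.812), so neither passed the test. The glycoproteins did not pass either: *Sparc* was at 1486 and 1656 CPM in WT1 and WT2 and 3458 and 2207 CPM in KO1 and KO2 (0.85, adjusted p = 0.072), *Vwa1* at 495 and 545 CPM in WT1 and WT2 and 816 and 693 CPM in KO1 and KO2 (0.54, adjusted p = 0.0855) and *Fn1* at 1056 and 900.0 CPM in WT1 and WT2 and 1336 and 1269 CPM in KO1 and KO2 (0.41, adjusted p = 0.198).

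**Figure D2:**
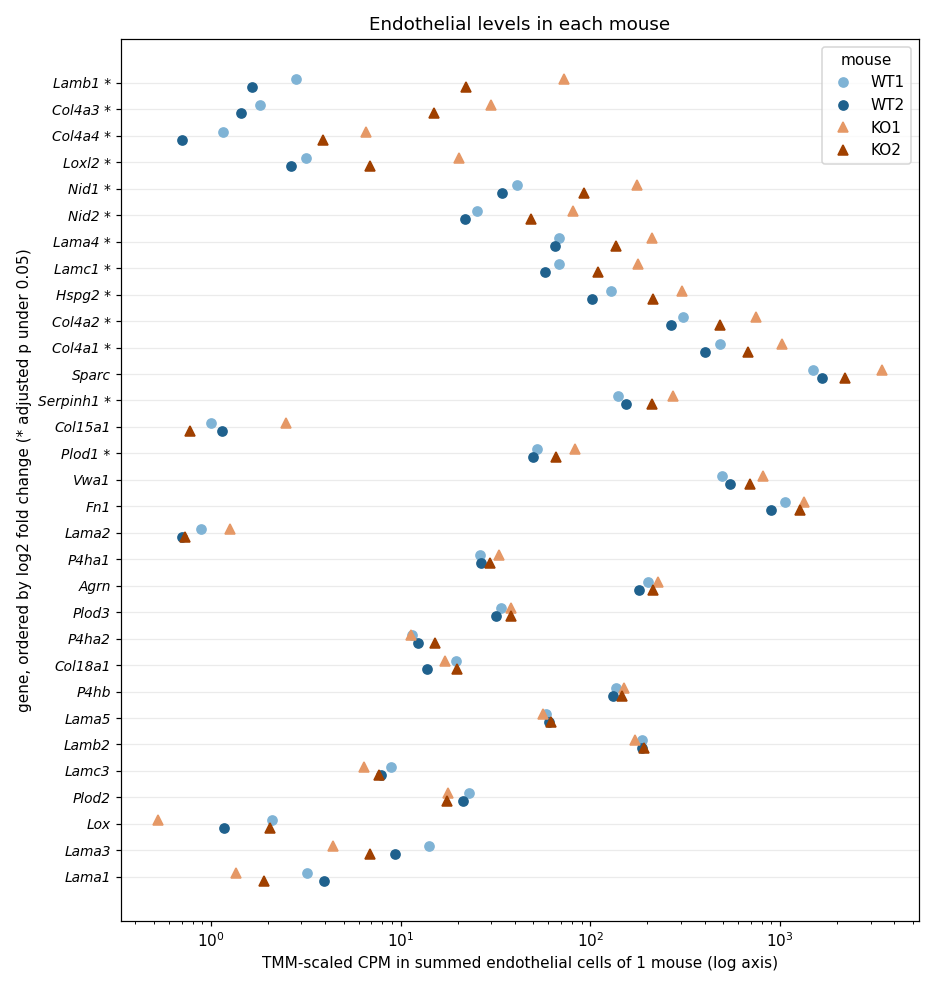
Level of the 31 tested members in the ECs of each mouse (points, TMM-scaled CPM on a log axis; circles WT, triangles KO), ordered by log2 fold change, with an asterisk for an adjusted p under 0.05. For the 13 marked genes both KO mice lie above both WT mice and KO1 lies above KO2.

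KO1 was higher than KO2 for each of the 13. Without KO1 the log2 fold change of *Lamb1* was 3.33 and that of *Loxl2* 1.26, and 10 members were called higher and 1 lower (*Lama3*). Without WT1 or WT2 the number called higher was 8 each time. *Loxl2* was lost without WT1 (adjusted p = 0.0839), without WT2 (0.1) and with ECs taken by markers alone, where its log2 fold change was 0.96 (0.0972). *Lamc1* was lost without WT2 (0.0571) and *Serpinh1* without WT1 (0.0963) and without KO1 (0.153). *Plod1* was lost without WT1, without WT2 and without KO1. The pericyte markers were even across the ECs of the 4 mice, at 108 and 109 CPM in the WT and 114 and 112 CPM in the KO mice, while smooth muscle markers were at 95.3 and 62.0 CPM in the WT and 37.1 and 73.0 CPM in the KO mice, and choroid plexus markers were at 781 and 684 CPM in the WT and 223 and 377 CPM in the KO mice. The choroid plexus markers were thus lower in the KO mice, and their part in these results was not tested. With ECs that had under 3 UMIs of pericyte and smooth muscle markers, 14 members were called higher and 1 lower, again *Lama3*.

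Other genes of the same pathways, from 4 lists of 61 genes, were called in both directions in ECs. Of 14 tested other basement membrane genes, 2 rose (*Pxdn* and *Ntn4*) and 3 fell (*Efemp2*, *Ntn1* and *Col5a2*). Of 15 other collagen processing genes, 2 rose (*Bmp1* and *Fkbp14*) and 1 fell (*Tll1*). Of 10 matrix turnover genes, 3 rose (*Adamts4*, *Adamts9* and *Mmp15*) and 0 fell, and of 10 matrix receptors 1 rose, *Itgb1*, which encodes the common integrin beta chain, and 0 fell. The called genes with the largest fold changes were *Adamts4*, a matrix protease (0.348 and 0.351 against 3.93 and 1.09 CPM, log2 fold change 2.83), *Pxdn*, which encodes the peroxidase that cross-links type IV collagen (7.54 and 6.35 against 39.2 and 17.3 CPM, 2.03), and *Tll1*, a protease of the procollagen C-proteinase family (2.47 and 3.04 against 0.611 and 0.863 CPM, −1.90), each given as WT1 and WT2 against KO1 and KO2.

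Because the angiogenic-like zone was rare in WT mice, the ECs outside it were also compared on their own. There, 3 of 31 tested members were higher and 0 lower, against 0.963% and 0.553% of 13191 genes, and both KO mice lay above both WT mice for 21 members (23.6% of all genes). The median log2 fold change of the 31 was 0.28 (−0.0006 over all genes). *Col4a3* was at 1.71 and 1.25 CPM in WT1 and WT2 and 10.9 and 7.08 CPM in KO1 and KO2 (log2 fold change 2.60 ± 0.28 SE, adjusted p = 0.0036). *Lama4* was at 67.1 and 64.2 CPM in WT1 and WT2 and 129 and 105 CPM in KO1 and KO2 (log2 fold change 0.83 ± 0.12 SE, adjusted p = 0.0123), and *Nid1* at 39.3 and 33.2 CPM in WT1 and WT2 and 66.5 and 56.4 CPM in KO1 and KO2 (log2 fold change 0.76 ± 0.13 SE, adjusted p = 0.024). The KO mice remained above the WT mice for these 3. *Lamb1*, at 1.87 and 1.13 CPM in WT1 and WT2 and 5.51 and 1.64 CPM in KO1 and KO2 (1.22, adjusted p = 0.347), and *Loxl2*, at 3.15 and 2.58 CPM in WT1 and WT2 and 2.36 and 3.03 CPM in KO1 and KO2 (−0.069, adjusted p = 0.944), did not pass the test there. *Col4a1* was at 474 and 401 CPM in WT1 and WT2 and 610.3 and 551 CPM in KO1 and KO2 (0.41, adjusted p = 0.241). The count was sensitive to the choice of samples and test: it was 10 without WT1, 5 without KO2 (with *Lamb1* and *Lamc1* added) and 8 with DESeq2, and *Nid1* was not called without WT2 (0.62, adjusted p = 0.0629).

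By zone, *Col4a3* and *Lama4* were called in both capillary-like and venous-like ECs. In capillary-like ECs 4 of 26 tested members were higher and 0 lower (0.802% of 11466 genes higher and 0.34% lower). *Col4a3* was at 3.55 and 3.19 CPM in WT1 and WT2 and 21.3 and 12.5 CPM in KO1 and KO2 (log2 fold change 2.27 ± 0.29 SE, adjusted p = 0.0014) and *Col4a4* at 1.39 and 0.614 CPM in WT1 and WT2 and 4.49 and 4.41 CPM in KO1 and KO2 (log2 fold change 2.18 ± 0.45 SE, adjusted p = 0.0339). The *Col4a4* values rest on 9 and 5 UMIs in WT1 and WT2 and 16 and 30 in KO1 and KO2. *Lama4* was at 82.8 and 81.7 CPM in WT1 and WT2 and 163 and 120.3 CPM in KO1 and KO2 (log2 fold change 0.77 ± 0.13 SE, adjusted p = 0.0109), and *Hspg2* at 154 and 137 CPM in WT1 and WT2 and 222 and 196 CPM in KO1 and KO2 (log2 fold change 0.52 ± 0.11 SE, adjusted p = 0.0421). In all 4 genes each KO mouse was above each WT mouse, as in 18 of the 26 (19.1% of all genes tested). Without WT2, 2 were called, *Col4a3* and *Lama4*. In venous-like ECs 3 of 29 were higher and 0 lower (0.971% of 12046 genes higher and 0.565% lower), and 17 of the 29 had both KO mice above both WT mice (20.9% of all genes). The 3 called were *Col4a3* at 1.08 and 0.630 CPM in WT1 and WT2 and 5.49 and 2.98 CPM in KO1 and KO2 (log2 fold change 2.34 ± 0.46 SE, adjusted p = 0.027), *Nid1* at 37.7 and 31.5 CPM in WT1 and WT2 and 69.0 and 51.7 CPM in KO1 and KO2 (log2 fold change 0.80 ± 0.16 SE, adjusted p = 0.0293) and *Lama4* at 68.3 and 60.6 CPM in WT1 and WT2 and 119.7 and 98.1 CPM in KO1 and KO2 (log2 fold change 0.76 ± 0.13 SE, adjusted p = 0.0155). Without WT2 or without KO1 no member was called in the venous-like zone (0 and 0), and without WT1 there were 7. In arterial-like ECs 0 of 27 were called by edgeR (0.232% of 10777 genes higher and 0.0928% lower) and 1 by DESeq2 (*Fn1*), with 10 at an unadjusted p under 0.05 and a median log2 fold change of 0.33. Whether the genotype difference itself differs between zones was not tested.

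**Figure D3:**
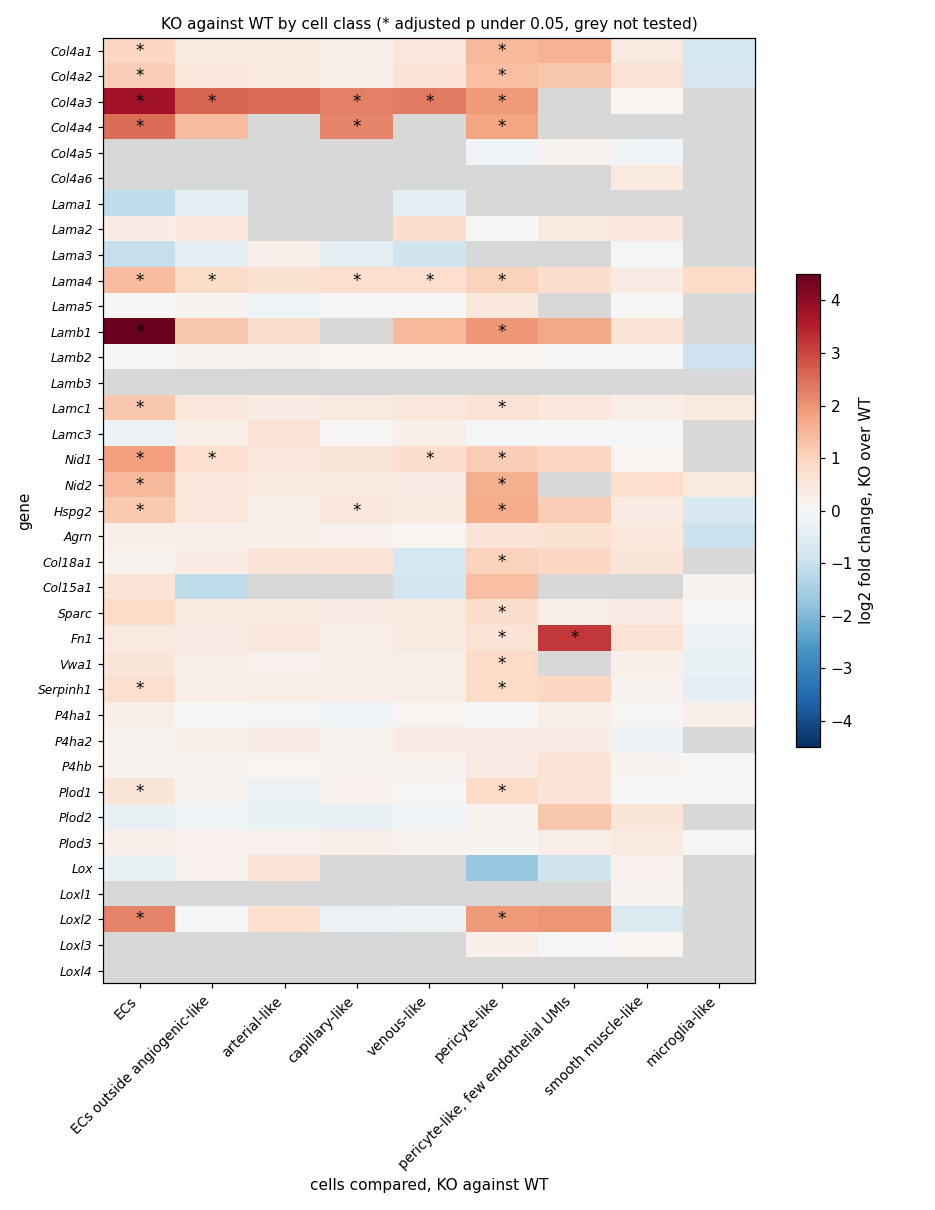
Heat map of the log2 fold change (KO over WT, colour) of the 37 genes (rows) in 9 sets of cells (columns), with an asterisk for an adjusted p under 0.05 and grey where a gene was not tested. Lamb1, Loxl2 and Nid1 had larger values in all ECs than in the ECs outside the angiogenic-like zone, and no value in smooth muscle-like or microglia-like cells is marked.

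In pericyte-like cells, 17 of 31 tested members were higher in KO mice and 0 lower, against 3.98% and 2.4% of 9786 genes. The median log2 fold change of the 31 was 0.78 (−0.0043 over all genes). *Lamb1* was at 40.5 and 59.0 CPM in WT1 and WT2 and 227 and 172 CPM in KO1 and KO2 (log2 fold change 1.96 ± 0.21 SE, adjusted p = 6.71e-06), and *Loxl2* at 38.8 and 21.4 CPM in WT1 and WT2 and 95.6 and 118 CPM in KO1 and KO2 (log2 fold change 1.90 ± 0.25 SE, adjusted p = 9.18e-05). *Hspg2* was at 111 and 109.8 CPM in WT1 and WT2 and 376 and 327 CPM in KO1 and KO2 (log2 fold change 1.67 ± 0.18 SE, adjusted p = 8.94e-06). *Col4a3* was at 8.81 and 13.2 CPM in WT1 and WT2 and 49.3 and 37.2 CPM in KO1 and KO2 (log2 fold change 1.93 ± 0.33 SE, adjusted p = 0.000933), and *Col4a4* at 5.29 and 11.2 CPM in WT1 and WT2 and 39.0 and 19.2 CPM in KO1 and KO2 (log2 fold change 1.78 ± 0.44 SE, adjusted p = 0.0171). In WT1 and WT2 the values rest on 5 and 13 UMIs for *Col4a3* and on 3 and 11 for *Col4a4*. For all 5 both KO mice lay above both WT mice, as for 21 of the 31 (24.8% of all genes tested). The others called were *Nid2*, *Col4a1*, *Col4a2*, *Nid1*, *Col18a1*, *Lama4*, *Plod1*, *Vwa1*, *Serpinh1*, *Sparc*, *Lamc1* and *Fn1*, with log2 fold changes of 0.60 to 1.60. The number called was 11 without WT2 and 10 without KO1, and *Col4a4* was not called without WT1 (1.46), without WT2 (2.53) or without KO1 (1.10).

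Endothelial RNA in these barcodes moved with the genotype. Pericyte-like cells that did not have few endothelial UMIs made up 32.9% and 32.7% of the class in WT1 and WT2 and 53.3% and 53.2% in KO1 and KO2. They held 70.3% and 69.1% of the UMIs of the class in WT1 and WT2 and 84.3% and 80.8% in KO1 and KO2. The sums tested above thus rest mostly on these barcodes. The 7 general endothelial markers were even, at 7084 and 7559 CPM in the WT and 7537 and 7645 CPM in the KO mice, but the 9 markers of the angiogenic-like zone were at 355 and 319 CPM in the WT and 1799.8 and 1419 CPM in the KO mice, capillary markers at 1509.8 and 1342 CPM in the WT and 1979 and 1724 CPM in the KO mice, venous markers at 1034 and 834 CPM in the WT and 605 and 762 CPM in the KO mice and fenestrated markers at 267 and 213 CPM in the WT and 161 and 104 CPM in the KO mice. Choroid plexus markers were at 699.7 and 656 CPM in the WT and 265 and 287 CPM in the KO mice, and erythroid markers reached 7212 CPM in KO1 against 74.7 to 909.6 in the others. Among the 49, 99, 79 and 96 pericyte-like cells of WT1, WT2, KO1 and KO2 with few endothelial UMIs, the markers of the angiogenic-like zone were at 599.6 and 622 CPM in the WT and 591 and 574 CPM in the KO mice. In these cells 25 members could be tested, of which 1 was called higher and 0 lower (0.0569% of 5275 genes higher and 0.0379% lower), 14 had an unadjusted p under 0.05 and 23 had a log2 fold change above 0, with a median of 0.60 (−0.012 over all genes). The member called was *Fn1*, at 65.8 and 59.6 CPM in WT1 and WT2 and 648 and 486 CPM in KO1 and KO2 (log2 fold change 3.19 ± 0.27 SE, adjusted p = 0.00204), 9.16-fold higher, from 10 and 17 UMIs in the WT and 354 and 140 in the KO mice. *Col4a1* was at 1191 and 1159.9 CPM in WT1 and WT2 and 4698 and 2297 CPM in KO1 and KO2 (log2 fold change 1.58, adjusted p = 0.125) and *Loxl2* at 125 and 63.1 CPM in WT1 and WT2 and 392 and 305 CPM in KO1 and KO2 (2.00, adjusted p = 0.0587). *Lamb1* was at 79.0 and 119 CPM in WT1 and WT2 and 439 and 222 CPM in KO1 and KO2 (1.71, adjusted p = 0.155). The KO mice were above the WT mice for these 3 as well, without passing the test. Summed over the 37 genes these cells held 7772 and 8956 CPM in WT1 and WT2 and 16977 and 13252 CPM in KO1 and KO2. Other markers in these cells also moved. The 7 endothelial markers were at 314 and 313 CPM in the WT and 405 and 429 CPM in the KO mice, with 2 of them above and 1 below the WT mice in both KO mice. The 6 fibroblast markers were at 1153 and 1144 CPM in the WT and 1308 and 2336 CPM in the KO mice, with 1 of them above the WT mice in both KO mice and 2 at 0. Choroid plexus markers were at 1422 and 1329.7 CPM in the WT mice and lower in both KO mice, with the lowest value, 65.8 CPM, in KO1. The part of these markers in the values of *Fn1*, *Loxl2* and the collagens was not tested.

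**Figure D4:**
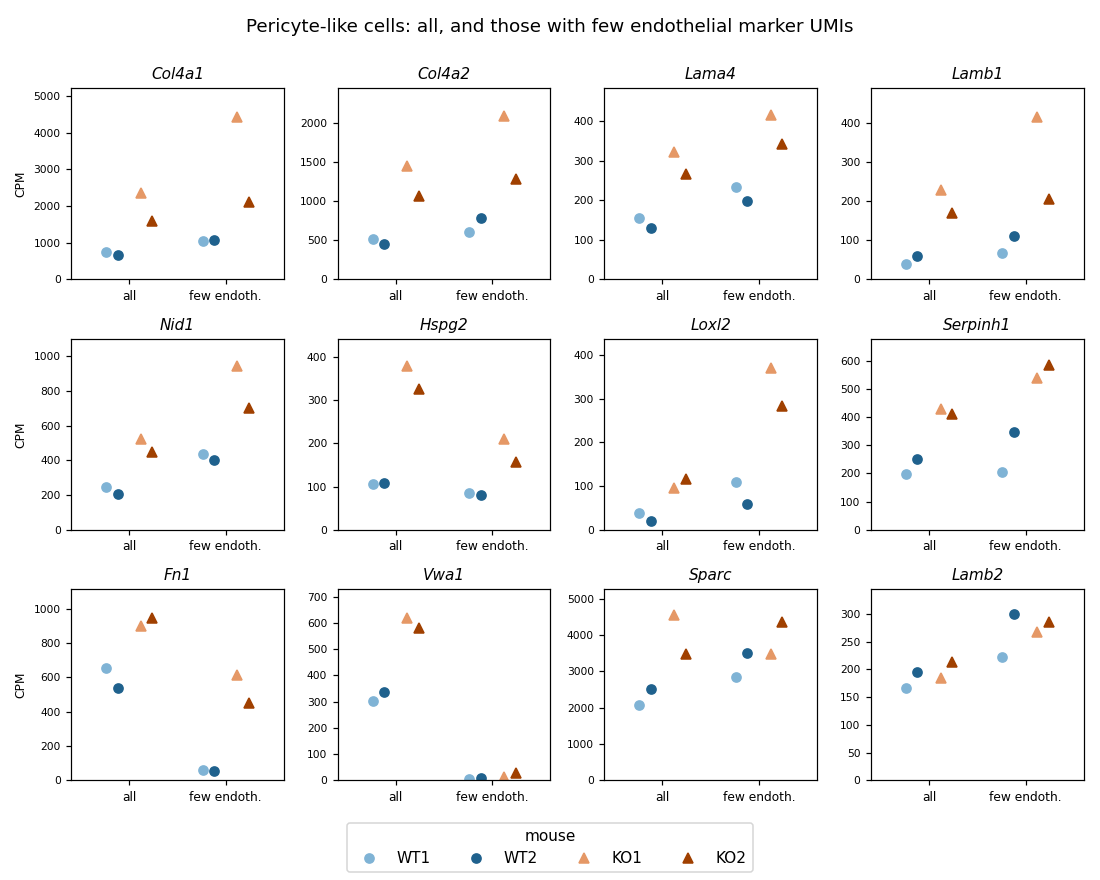
Level of 12 members in each mouse (points, CPM on a linear axis from 0) in all pericyte-like cells and in those with few endothelial UMIs. Vwa1 is far lower in the cells with few endothelial UMIs, and Fn1 of both KO mice lies above both WT mice there.

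In smooth muscle-like cells 0 of 32 tested members were called, as were 0 of all 10253 genes (0% higher and 0% lower). DESeq2 called 0 higher and 0 lower, 4 had an unadjusted p under 0.05 and the median log2 fold change was 0.21. Only 52 smooth muscle-like cells came from KO1, and the endothelial markers were highest there, at 4340.3 and 4829 CPM in the WT and 6586 and 4730.4 CPM in the KO mice. *Lamb1* was at 4.03 and 4.89 CPM in WT1 and WT2 and 5.94 and 7.38 CPM in KO1 and KO2 and *Col4a1* at 629 and 461 CPM in WT1 and WT2 and 778 and 682 CPM in KO1 and KO2, and *Col4a5*, a smooth muscle gene in these data, at 86.3 and 59.8 CPM in WT1 and WT2 and 55.4 and 76.5 CPM in KO1 and KO2. *Col4a5* overlapped between genotypes, and *Lamb1* (adjusted p = 0.928) and *Col4a1* (adjusted p = 0.9) did not pass the test although both KO mice lay above the WT mice. With few endothelial UMIs, 0 of 25 members were called (0.202% of 7913 genes higher and 0.0253% lower). In microglia-like cells 0 of 17 were called (0.122% of 9030 genes higher and 0.199% lower), 0 were higher and 0 lower with DESeq2, 4 had an unadjusted p under 0.05 and the median was −0.04.

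The genotype difference was then compared between cell classes with an interaction term. Between pericyte-like cells and ECs, 1 of 35 members differed upwards and 3 downwards (0.678% and 0.97% of 13708 genes). *Col4a1* rose more in pericyte-like cells, by 0.54 on the log2 scale, and *Lamb1* (−2.38), *Col4a3* (−1.89) and *Nid1* (−0.68) rose less. With few endothelial UMIs, *Fn1* (2.81) was called upwards and *Col4a1* was not (0.63, adjusted p = 0.116), with 0.584% of 13361 genes called higher and 0.793% lower. The pericyte-like side of *Col4a3* there rests on 3, 6, 30 and 9 UMIs in WT1, WT2, KO1 and KO2. *Lamb1* (−2.67), *Col4a3* (−2.69) and *Nid1* (−0.83) were still called downwards in these cells. Without WT2 none of the 3 was called lower, and without KO1 there was 1, *Lamb1*. Between smooth muscle-like cells and ECs, 0 of 35 differed upwards and 7 downwards (0.254% and 0.943% of 13781 genes): *Lamb1*, *Col4a3*, *Col4a4*, *Loxl2*, *Nid1*, *Lama4* and *Lamc1*, whose differences ran from −3.59 to −0.85. With few endothelial UMIs, 8 of 35 were called downwards (0.758% of 13594 genes higher and 1.04% lower), namely *Col4a1*, *Col4a2*, *Col4a3*, *Lama4*, *Lamc1*, *Nid1*, *Hspg2* and *Loxl2*, while *Lamb1* was at −1.92 (adjusted p = 0.682). The smooth muscle-like side of *Col4a3* rests on 6, 5, 3 and 3 UMIs in WT1, WT2, KO1 and KO2. That of *Loxl2* rests on 23, 3, 4 and 6. Over all smooth muscle-like cells the count was 3 without WT1 (*Col4a3*, *Lamb1* and *Nid1*), 2 without WT2 (*Loxl2* and *Nid1*) and 13 without KO2.

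*Apln*, which encodes the peptide apelin, is a marker of endothelial tip cells, the leading cells of vascular sprouts. To see which matrix genes go with it, ECs with at least 1 *Apln* UMI were compared with those without, within each mouse and with the mouse as a term. In KO1 392 of 2090 ECs were *Apln*-positive (18.8%, exact 95% binomial interval 17.1% to 20.5%) and in KO2 308 of 4143 (7.43%, 6.65% to 8.28%). In WT1 there were 38 of 3223 (1.18%, 0.836% to 1.61%) and in WT2 64 of 4698 (1.36%, 1.05% to 1.74%). The intervals cover counting error only. As a background, microglia-like cells had an *Apln* UMI in 0.481%, 0.617%, 4.15% and 1.85% of cells in WT1, WT2, KO1 and KO2, at median depths of 4521, 4018, 6265 and 3497 UMIs. *Apln*-positive cells were deeper, with medians of 12685 against 6952 UMIs in KO1, 5881 against 3795 in KO2, 11303 against 5409 in WT1 and 13091.5 against 4478 in WT2. Of the *Apln*-positive cells 76.0% (KO1) and 61.4% (KO2) lay in the angiogenic-like zone in KO mice, but 26.3% (WT1) and 12.5% (WT2) in WT mice.

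In KO mice, 17 of 29 tested members were higher and 3 lower in *Apln*-positive ECs, against 13% and 9.64% of 12329 genes. The median log2 difference of the 29 was 0.77 (−0.011 over all genes). *Lamb1* was at 7.20 and 3.17 CPM in the *Apln*-negative and 213 and 148 CPM in the *Apln*-positive ECs of KO1 and KO2, 35.4-fold higher (log2 fold change 5.14 ± 0.12 SE, adjusted p = 2.51e-15). Its log2 difference was 4.88 in KO1 alone and 5.55 in KO2 alone, further apart than that SE. Without the mouse as a term in the same test, its adjusted p was 0.000859. The laminin partners moved with it: *Lamc1* was at 109 and 92.9 CPM in the *Apln*-negative and 330.1 and 229 CPM in the *Apln*-positive ECs of KO1 and KO2 (log2 fold change 1.46 ± 0.08 SE, adjusted p = 4.03e-10), and *Lama4* at 142 and 117 CPM in the *Apln*-negative and 358 and 275 CPM in the *Apln*-positive ECs of KO1 and KO2 (log2 fold change 1.28 ± 0.072 SE, adjusted p = 5.30e-10). The 3 genes were higher in the positive cells of both mice. *Col4a1* was at 633 and 592 CPM in the *Apln*-negative and 1857 and 1308 CPM in the *Apln*-positive ECs of KO1 and KO2 (log2 fold change 1.35 ± 0.10 SE, adjusted p = 1.16e-08), and *Col4a2* at 459 and 413 CPM in the *Apln*-negative and 1377 and 981 CPM in the *Apln*-positive ECs of KO1 and KO2 (log2 fold change 1.42 ± 0.089 SE, adjusted p = 2.17e-09). The linkers *Nid1*, at 95.1 and 73.5 CPM in the *Apln*-negative and 350.0 and 228 CPM in the *Apln*-positive ECs of KO1 and KO2 (log2 fold change 1.77 ± 0.078 SE, adjusted p = 2.30e-11), and *Nid2*, at 44.1 and 38.9 CPM in the *Apln*-negative and 161 and 116 CPM in the *Apln*-positive ECs of KO1 and KO2 (log2 fold change 1.74 ± 0.085 SE, adjusted p = 7.47e-11), rose as well. *Loxl2*, the cross-linking enzyme, was at 3.05 and 3.32 CPM in the *Apln*-negative and 57.4 and 31.0 CPM in the *Apln*-positive ECs of KO1 and KO2 (log2 fold change 3.78 ± 0.18 SE, adjusted p = 6.21e-11). It was low in the negative cells of both mice and higher in the positive cells of both.

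Other members passed with smaller or lower-count differences. *Lama2*, otherwise a pericyte gene, was at 0.260 and 0.633 CPM in the *Apln*-negative and 3.42 and 1.39 CPM in the *Apln*-positive ECs of KO1 and KO2 (log2 fold change 2.49 ± 0.63 SE, adjusted p = 0.00795), and the 8 pericyte markers were at 55.3 and 114 CPM in the negative and 234 and 97.6 CPM in the positive cells of KO1 and KO2. Their part in the *Lama2* value was not tested. *Hspg2* (1.10), *Serpinh1* (1.08), *Sparc* (1.01), *Plod1* (0.98), *Col4a3* (0.89), *P4ha1*, a prolyl hydroxylase (0.77), *Fn1* (0.48) and *Vwa1* (0.43) rose too, given as log2 differences. *Lama3* was at 6.03 and 7.49 CPM in the *Apln*-negative and 1.09 and 3.13 CPM in the *Apln*-positive ECs of KO1 and KO2 (log2 fold change −1.90 ± 0.35 SE, adjusted p = 0.000661). *Lamb2* (−0.44) and *Agrn* (−0.23) were also lower. After thinning each cell to 2000 UMIs, which left 193 and 140 positive cells, 14 members were called higher and 1 lower (*Lamb2*), *Lamb1* was at 5.54, and *Lama3* turned to 0.40. Within the angiogenic-like zone alone, 17 were higher and 2 lower (*Lamb2* and *Agrn*), with *Lamb1* at 4.27. No share over all genes is given for either setting.

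**Figure D5:**
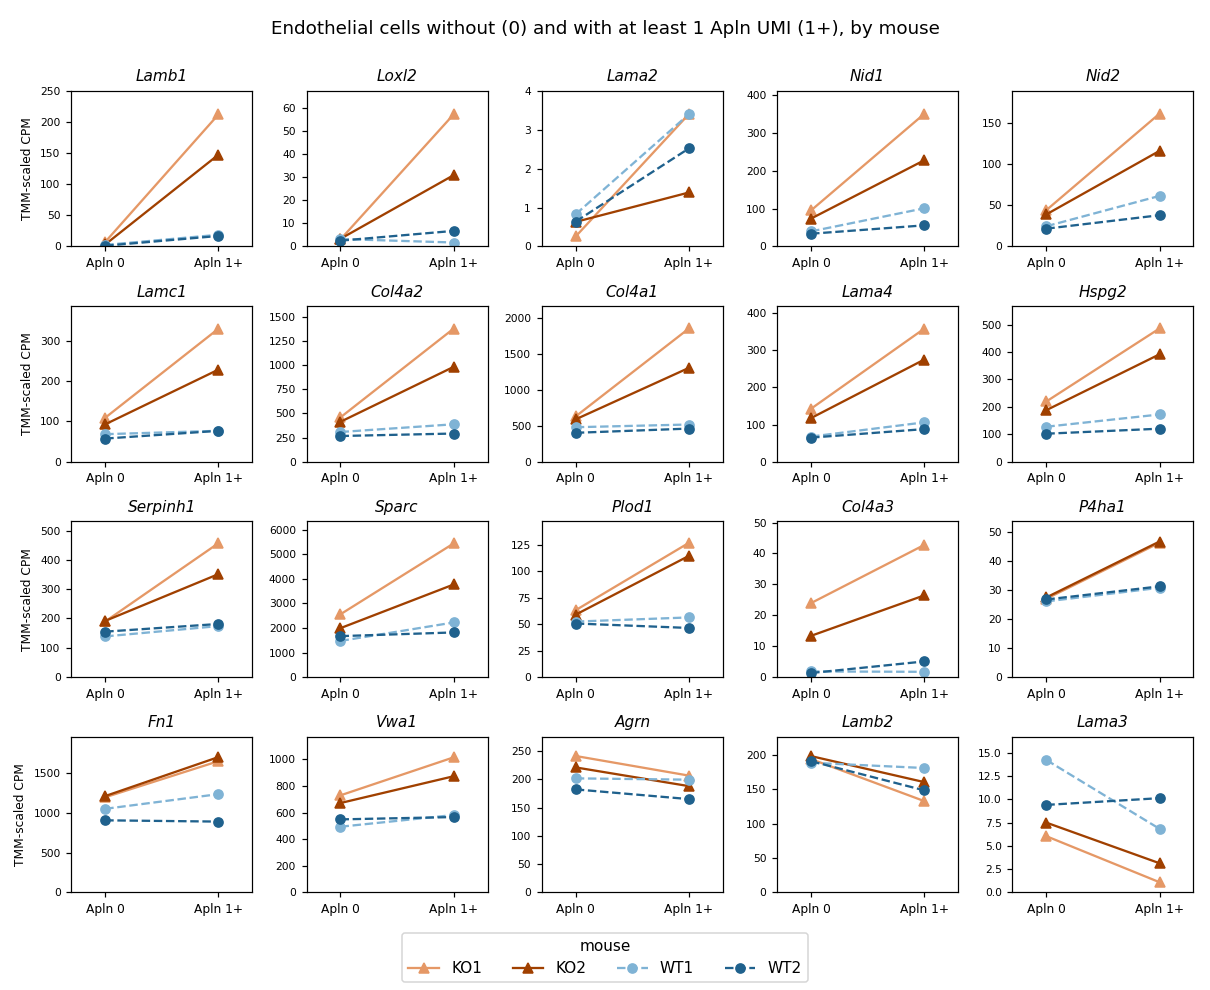
Level of the 20 members called in KO mice in Apln-negative and Apln-positive ECs (TMM-scaled CPM on a linear axis from 0), with a line for each mouse (solid KO, dashed WT). Lamb1 climbs in every mouse and reaches its highest values in KO1 and KO2, Loxl2 climbs steeply in both KO mice, and Lama3 falls in both.

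Of the related genes, 5 of 9 tested matrix turnover genes were higher (*Adamts4*, *Mmp14*, *Timp1*, *Adamts9* and *Adamts1*) and 1 lower (*Plat*) in *Apln*-positive KO ECs. Of other collagen processing genes 4 of 14 were higher (*P3h3*, *Fkbp10*, *Bmp1* and *Ppib*) and 0 lower. Of matrix receptors 3 of 9 were higher (*Itga5*, *Itgb1* and *Ddr2*) and 1 lower (*Itgb4*). Of other basement membrane genes 3 of 13 were higher (*Pxdn*, *Smoc2* and *Sparcl1*) and 5 lower (*Fbln5*, *Fbln2*, *Ntn1*, *Npnt* and *Tinagl1*). The called genes with the largest differences were *Adamts4* (0.454 and 0.317 against 11.3 and 6.26 CPM, log2 difference 4.46), the elastic fibre gene *Fbln5* (9.34 and 26.3 against 0.820 and 1.39 CPM, −3.84) and *Mmp14*, a membrane-bound matrix protease (0.389 and 1.00 against 12.7 and 4.87 CPM, 3.61), each as negative cells of KO1 and KO2 against positive cells.

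In WT mice, with 38 and 64 positive cells, 5 of 31 tested members were higher and 1 lower (1.22% and 1.28% of 12635 genes). *Lamb1* was at 2.46 and 1.10 CPM in the *Apln*-negative and 18.8 and 16.9 CPM in the *Apln*-positive ECs of WT1 and WT2 (log2 fold change 3.46 ± 0.47 SE, adjusted p = 3.48e-06), and *Nid1* at 39.7 and 33.6 CPM in the *Apln*-negative and 101 and 55.6 CPM in the *Apln*-positive ECs of WT1 and WT2 (log2 fold change 1.01 ± 0.16 SE, adjusted p = 4.81e-05). *Nid2* was at 24.5 and 21.6 CPM in the *Apln*-negative and 61.4 and 37.9 CPM in the *Apln*-positive ECs of WT1 and WT2 (log2 fold change 1.03 ± 0.19 SE, adjusted p = 0.000621), and *Lama4* at 67.7 and 64.8 CPM in the *Apln*-negative and 106 and 87.7 CPM in the *Apln*-positive ECs of WT1 and WT2 (log2 fold change 0.52 ± 0.14 SE, adjusted p = 0.0218). All 4 were higher in the positive cells of both mice, as was *Sparc* (0.36). *Col18a1* was the lower one, but it rests on 2 and 1 UMIs in the positive cells of WT1 and WT2, against 506 and 467 in the negative cells, and the call was lost with DESeq2, after thinning, without the mouse as a term and among capillary-like and angiogenic-like ECs alone. After thinning, which left 12 and 21 positive cells, 0 were called higher and 0 lower. The log2 difference of positive from negative cells was higher, with its sign, in KO than in WT mice for 14 of 31 members and lower for 0 (2.96% and 1.82% of 12877 genes). It was larger by 1.21 for *Col4a1*, 1.21 for *Col4a2*, 1.70 for *Lamb1* and 2.91 for *Loxl2* on the log2 scale. A smaller share of the positive cells lay in the angiogenic-like zone in WT than in KO mice. The part of this in the differences was not tested. For 13 of the 14 the positive cells were higher in KO mice. The exception was *Col18a1*, which was at 16.1 and 20.7 CPM in the *Apln*-negative and 19.7 and 14.6 CPM in the *Apln*-positive ECs of KO1 and KO2 and was not called in KO mice. *Col4a1* itself was at 481 and 403 CPM in the *Apln*-negative and 519 and 462 CPM in the *Apln*-positive ECs of WT1 and WT2. Without WT2 the count was 9, and without WT1 *Lamb1* was not called (1.22).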

How the data were processed

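Raw UMI counts per gene and barcode of 4 libraries, 2 WT and 2 KO, were used as deposited. The authors had made these counts with Cell Ranger (6.1.2 per the labels) on a GRCm38 reference and had not normalized them; UMIs are counted at the 3′ end, so levels are not divided by length. Cells were kept above 500 genes and under 10% mitochondrial UMIs, log-normalized and clustered in Seurat 5.3.0 (R 4.3.3) without the 37 genes and 61 related genes, and named from fixed markers. Because the classes were rebuilt here, they need not match the cell types of the study. UMIs were summed per mouse and class and tested with edgeR 4.0.16 (filterByExpr, TMM, quasi-likelihood test, two-sided, Benjamini-Hochberg adjustment over all genes tested, threshold 0.05). The tests were also run on counts simulated from their own fits. Such a run cannot show how well 2 mice per genotype capture the spread between mice. Genotypes were compared without a block; the *Apln* split had the mouse as a term. DESeq2 1.42.0, other filters and scalings, left-out mice, a replicate block, thinning and other cell sets were alternatives. The comparison of mural-like cells with few endothelial UMIs and the *Apln* split within the angiogenic-like zone were added after seeing the data. Values in all mice are given for the 10 called members with the largest change in ECs and in the *Apln* split of KO mice, for 5 in every other comparison and for 17 fixed members in ECs; other members named were chosen after their values were seen. The members and gene lists were chosen with earlier results of these data known. The labels call all samples endothelial cells, and other cell types were found among them. Depth was 31753395 to 42903731 UMIs per library, and a gene with 3 UMIs or fewer in a sum cannot be told from none.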

Additional observations from a re-analysis of the deposited data

Results flagged for a closer look

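The values here are members whose effect differed between 2 settings by a test of the difference itself (an interaction term in edgeR's quasi-likelihood fit, adjusted over all genes tested). The log2 difference of *Apln*-positive from *Apln*-negative ECs was higher in KO than in WT mice for *Loxl2* (2.91), *Lamb1* (1.70), *Col4a2* (1.21), *Col4a1* (1.21), *Lamc1* (1.15), *Plod1* (1.03), *Serpinh1* (0.83), *Hspg2* (0.79), *Nid1* (0.77), *Lama4* (0.77), *Nid2* (0.72), *Sparc* (0.67) and *Fn1* (0.39). The value for *Col18a1* (3.26) is of another kind: it was not called in KO mice, and in WT mice it rests on 2 and 1 UMIs in the positive cells. They include the laminin chains *Lamb1*, *Lamc1* and *Lama4*, both nidogens, perlecan and both abundant type IV collagen chains, with the enzymes *Loxl2* and *Plod1* and the chaperone *Serpinh1*. The WT side rests on 38 and 64 positive cells, of which 26.3% and 12.5% lay in the angiogenic-like zone. In KO1 and KO2 these shares were 76.0% and 61.4%. The part of this in the differences was not tested.

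Between pericyte-like cells and ECs the log2 difference of KO from WT was larger in pericyte-like cells for *Col4a1* (0.54) and smaller for *Lamb1* (−2.38), *Col4a3* (−1.89) and *Nid1* (−0.68). Between smooth muscle-like cells and ECs it was smaller in smooth muscle-like cells for *Lamb1* (−3.59), *Col4a3* (−3.57), *Col4a4* (−3.26), *Loxl2* (−2.65), *Nid1* (−1.66), *Lama4* (−0.99) and *Lamc1* (−0.85). The pericyte-like and smooth muscle-like barcodes held endothelial RNA, as given in the report.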

How the results depend on the processing

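*Lamb1*, *Col4a3*, *Nid1*, *Nid2*, *Lama4* and *Hspg2* were called in ECs under all 12 alternatives, and *Lamb1*, *Loxl2*, *Nid1*, *Nid2*, *Lamc1*, *Col4a2*, *Col4a1* and *Lama4* in the *Apln* split of KO mice under all 12 alternatives with a test, with the same direction in either KO mouse alone. Counts below are of members called, with no share over all genes beside them. With DESeq2 they were 1 lower in ECs, 8 higher outside the angiogenic-like zone, 1 higher in arterial-like and 5 in venous-like ECs, 1 lower in the KO and 2 higher and 0 lower in the WT *Apln* split, and 0 (pericyte-like) and 3 (smooth muscle-like) lower against ECs. With no filter on low counts they were 2 lower in ECs, 9 higher outside the zone, 3 higher in arterial-like, 6 higher and 1 lower in venous-like ECs, 1 lower in pericyte-like and 1 in microglia-like cells, and 3 higher between pericyte-like cells and ECs. A minimum of 10 CPM left 1 and 2 lower against ECs. The replicate numbers go with sex and did not pair the mice (across genes, r = −0.133 and rho = −0.141 between the deviations of same-numbered mice in ECs). With the replicate block, counts were 2 lower in ECs, 8 higher outside the zone, 3 in arterial-like, 8 in capillary-like and 1 lower in venous-like ECs. It moved no other count by over 1.5 times. Without the mouse as a term the *Apln* split gave 1 lower in KO and 1 higher and 0 lower in WT mice, and after thinning 1, 0 and 0. Capillary-like and angiogenic-like ECs alone gave 10 higher and 0 lower in WT mice, and ECs without *Apln* UMIs 8 higher outside the zone. Few mural UMIs gave 1 lower in ECs, and pericyte-like cells with few endothelial UMIs 1 higher. The causes were not tested.

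Leaving out 1 mouse each, members called higher and lower were 8 to 15 and 0 to 2 in ECs, 2 to 10 and 0 to 1 outside the zone, 0 to 1 higher in arterial-like and 2 to 5 in capillary-like ECs, 0 to 7 and 0 to 2 in venous-like ECs, 10 to 16 and 0 to 1 in pericyte-like cells, 0 to 3 lower in microglia-like cells, 9 to 15 and 0 to 1 for the *Apln* difference between genotypes, 1 to 2 and 0 to 4 between pericyte-like cells and ECs, and 0 to 2 and 2 to 13 between smooth muscle-like cells and ECs; a lone mouse is assumed to vary like the other genotype. Members not called in ECs turned sign. *Lama5* became 0.00072 with DESeq2, 0.00077 with RLE scaling, 0.0086 without scaling, 0.018 without WT2 and 0.062 without KO1 (−0.046 without KO2). *Lamb2* became 0.029 without KO1 (−0.084 without KO2) and 0.029 with ECs taken by markers alone. *Lox* became 0.13 without WT1, 0.35 without KO1 (−1.57 without KO2), 0.016 with few mural UMIs and 0.38 with ECs taken by markers alone. *Lama3* in the KO *Apln* split became 0.40 after thinning. In WT mice a split at 2 or more *Apln* UMIs and one within the angiogenic-like zone left under 10 cells in a mouse and were not run. With 2 mice per genotype, and 28 and 26 angiogenic-like cells in the WT mice, the depth limits low genes such as *Lox* and *Lama1*.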
